A study of Rattus norvegicus with 26 samples.

Results

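The adrenergic receptor genes are the receptors for noradrenaline and adrenaline, and 7 of them were followed here in the thoracic aorta of hypertensive rats: Adra1a, Adra1b and Adra1d (the alpha1 receptors), Adra2a and Adra2b (alpha2), and Adrb1 and Adrb3 (beta). They were chosen by name: every probe outside the controls whose accession maps to one of these genes was taken, which gave 7 genes of the 15168 with a symbol on the array, each read by 1 probe. The Adra1d probe is printed on 10 spots of each array and the other probes on 1 spot. Other adrenergic receptor genes were not analysed here.

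RNA was taken separately from the aorta of each male spontaneously hypertensive rat, an inbred strain whose blood pressure is high without treatment. All groups share that strain, sex and tissue, and were dosed by mouth for 4 weeks and killed on day 28. The controls received saline (7.5 mL per kg, n = 8 arrays). The others received Songling Xuemaikang capsule (SXC), a Chinese herbal preparation, at 236.25 mg per kg (the low dose, n = 6) or 708.75 mg per kg (the high dose, n = 6), or valsartan, which blocks the angiotensin II type 1 receptor, at 21.6 mg per kg (n = 6). The series text names 8 rats for valsartan, of which 6 arrays were analysed here. The ages are not given in the sources used here, and no rats of a strain with normal pressure were analysed. Whole aortas with whatever adventitia, nerve and fat came with them were used, so that fewer cells of a type and less RNA per cell cannot be told apart.

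As background, noradrenaline from sympathetic nerve endings in the outer wall of an artery acts on receptors of the muscle layer. Alpha1 receptors couple through Gq to phospholipase C and calcium release and contract smooth muscle, and the alpha1D form is known as a main contractile form in the rat aorta. Alpha2 receptors couple through Gi and lower cAMP: alpha2A also acts on nerve endings as a brake on noradrenaline release, and alpha2B can constrict vessels. Beta receptors couple through Gs and raise cAMP: beta1 is best known from the heart, and beta3 drives lipolysis and heat production in rodent fat cells.

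Levels are log2 signals relative to the 75th percentile of the same array, and a probe is called well above background by the scanner software. A gene was tested where its probe passed that mark on 6 or more of the 26 arrays, as 23744 of 30367 probes did, and called at a limma adjusted p under 0.05 over all of them, with a 2-sided test. The arrays differed in brightness: 67.3% to 76.2% of probes were well above background on saline arrays, 70.4% to 77.0% on low-dose, 28.9% to 79.6% on high-dose and 32.5% to 56.5% on valsartan arrays. High-dose arrays 3 to 6 and all valsartan arrays were read at a lower gain of the detector, 323 to 325 V against 353 to 354 V elsewhere. Saline was scanned apart from the rest, with 0 days shared, so for every difference from saline the scan day and the treatment cannot be told apart. The 8 smooth muscle markers had mean levels of 2.39 to 4.15 on saline arrays, 3.32 to 3.82 at the low dose, 3.03 to 3.47 at the high dose and 2.90 to 3.48 under valsartan, and each was well above background in every group. Saline arrays 3, 7 and 8 had the highest means of the 7 white fat markers (3.84, 3.72 and 3.18), against -0.31 to 2.10 on the other saline arrays and -1.58 to 0.44 on all treated arrays. Markers of other cells were also called against saline in high-dose, low-dose and valsartan aortas, in that order. Lower were 5, 6 and 6 of 6 red cell, 7, 7 and 7 of 8 macrophage and 6, 6 and 5 of 7 endothelial markers. The endothelial marker Cdh5 rose in each comparison (1.57, 0.72 and 1.74 on the log2 scale). Of all tested probes, 25.4%, 16.9% and 27.4% were lower and 30.7%, 22.4% and 30.3% higher. Under valsartan 4 endothelial, 2 macrophage and 1 red cell marker were not well above background on any array. The same held for 2 endothelial and 1 macrophage marker at the high dose. With normexp background correction, Tie1 at the high dose went from -1.91 to 0.07 (adjusted p = 0.827). Fibroblast markers fell in 4, 3 and 4 of 6 and rose in 0 (0 at an unadjusted limma p under 0.05), and smooth muscle markers fell in 4, 2 and 4 of 8 and rose in 1, 2 and 1. The part of these cells in the receptor results was not tested, other than where a value with the fat or muscle markers in the fit is given.

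Against saline, 3 receptor genes rose under all 3 treatments: the alpha1 receptors Adra1a and Adra1d and the alpha2 receptor Adra2b. Adrb1 rose at the high dose, Adra1b rose at the low dose, and Adrb3 fell under valsartan. Adrb1 was also called higher under valsartan, but only 3 of 6 arrays there were well above background, so that direction is uncertain. Adra2a was too dim to test. By count, 4 of the 6 tested genes were higher at the high dose and 0 were lower (4 and 0 at an unadjusted limma p under 0.05), where 56.2% of all tested probes were called, 30.7% higher and 25.4% lower. At the low dose, 4 were higher and 0 lower (5 and 1 unadjusted), where 39.3% of all tested probes were called, 22.4% higher and 16.9% lower. Under valsartan, 4 were higher and 1 lower, where 57.7% of all tested probes were called, 30.3% higher and 27.4% lower. At shares this large, a call by itself does not set a receptor gene apart from the rest of the array. The median log2 difference of the 6 tested genes was 0.92, 1.05 and 0.92 for the high dose, the low dose and valsartan, against 0.10, 0.08 and 0.10 over all tested probes. Higher in all 3 comparisons were 3 of the 6 tested genes and 3485 of 23744 probes (14.7%), and the 3 comparisons share the saline arrays.

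**Figure D1:**
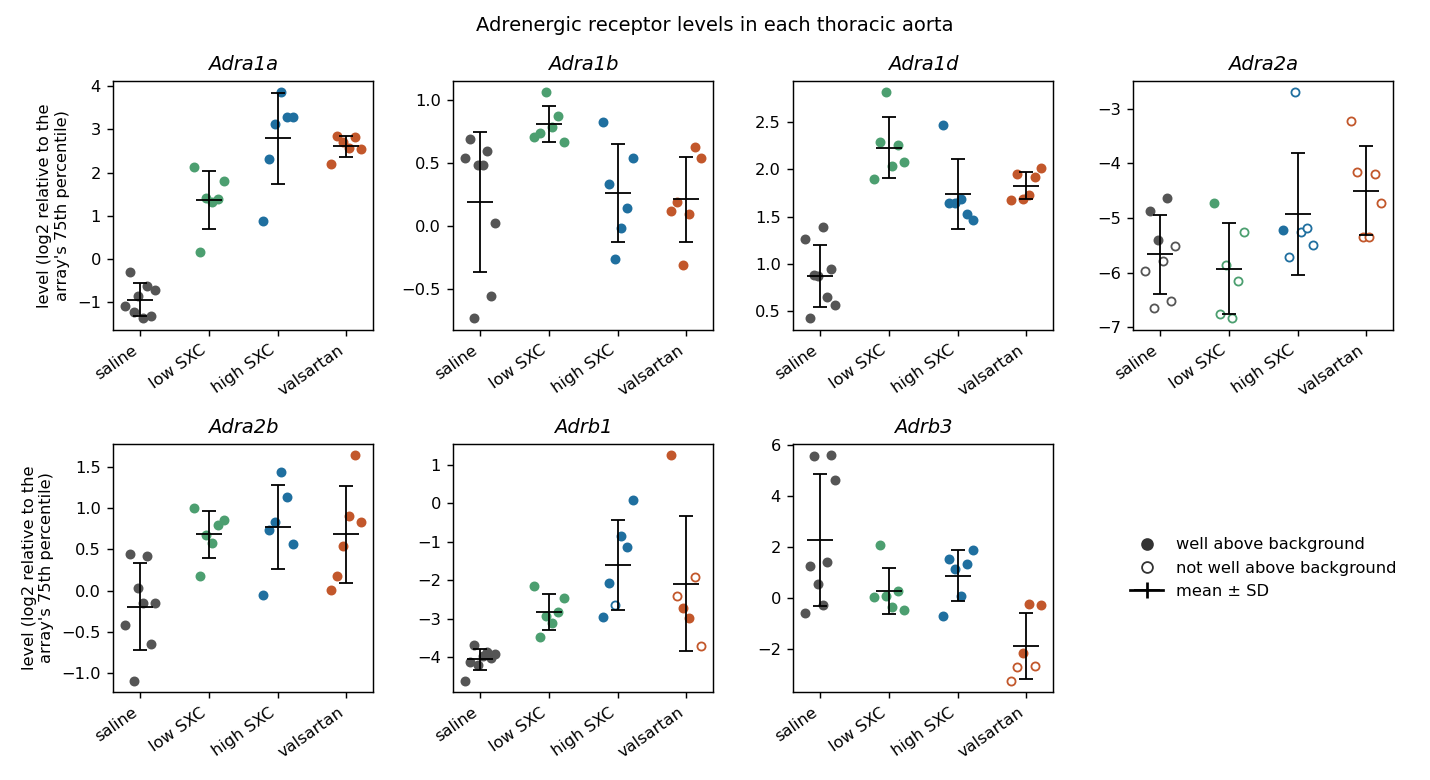
Level of each of the 7 receptor genes (log2 signal relative to the array's 75th percentile) on every array, by group. Each point is 1 array, filled where the probe was well above background, and the bars give the mean and SD. Adra1a and Adra1d on saline arrays lie below all treated arrays, and Adrb3 is spread from -0.56 to 5.62 within saline. The share of all tested probes with ranges apart was not counted.

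Adra1a, the alpha1A receptor, showed the largest rise of the tested receptor genes. Its level on saline arrays ran from -1.38 through a median of -0.97 to -0.30. It ran from 0.17 through 1.39 to 2.13 at the low dose, from 0.88 through 3.20 to 3.86 at the high dose and from 2.20 through 2.64 to 2.86 under valsartan. Every treated array lay above every saline array, and the gap between the ranges was 0.47 at the low dose, 1.18 at the high dose and 2.50 under valsartan. Here and below, the share of all tested probes whose ranges lie apart was not counted. Ranges apart therefore do not by themselves set a receptor gene apart from the rest of the array. The probe was well above background on all 26 arrays, at a signal of 284 to 707 on saline and 1165 to 2823 on valsartan arrays.

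The mean level of Adra1a was -0.94 ± 0.38 (SD, n = 8) in saline, 1.37 ± 0.67 (SD, n = 6) at the low dose, 2.79 ± 1.06 (SD, n = 6) at the high dose and 2.62 ± 0.24 (SD, n = 6) under valsartan. These means correspond to 13.3-fold more signal at the high dose (95% interval 8.37 to 21.2), 4.96-fold at the low dose (3.12 to 7.89) and 11.8-fold under valsartan (7.40 to 18.7). The intervals leave out the detector gain, which was the higher one on all saline arrays. The high-dose mean was 1.60 on the 2 arrays at that gain and 3.39 on the 4 arrays at the lower gain. All valsartan arrays were at the lower gain, so for that fold gain and treatment cannot be told apart. The log2 differences were 3.74 ± 0.33 (SE, adjusted p = 9.12e-10), 2.31 ± 0.33 (adjusted p = 3.91e-06) and 3.56 ± 0.33 (adjusted p = 1.69e-09). A larger rise was measured for 2.56%, 1.80% and 2.67% of all tested probes. Over the alternative settings the differences stayed called and lay between 2.54 and 4.12 at the high dose, 2.12 and 2.55 at the low dose, and 3.10 and 3.74 under valsartan. Without saline arrays 3, 7 and 8, those rich in fat markers, they were 3.64, 2.22 and 3.46.

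In order of level, Adra1a stood lowest in saline, then at the low dose, then under valsartan and at the high dose, the last pair differing by 0.18 on the log2 scale with an interval of the difference of -0.90 to 0.54. The high-dose level was higher than the low-dose level by 1.43 ± 0.35 (SE, adjusted p = 0.0049), but the ranges overlapped. That difference followed the detector gain: high-dose arrays 1 and 2, scanned at the higher gain like the low-dose arrays, had 0.88 and 2.32, and high-dose arrays 3 to 6, at the lower gain, had 3.12 to 3.86. Among arrays at the higher gain the high dose exceeded the low dose by 0.23 (adjusted p = 0.915), and among the arrays of the scan day that holds both doses (2 of each) the difference was -0.37 (adjusted p = 0.999). Valsartan exceeded the low dose by 1.25 ± 0.35 (SE, adjusted p = 0.0096), with ranges 0.066 apart, and no gain level or scan day holds both of those groups. With slide as a random block, the excess over the low dose was 1.15 for the high dose (adjusted p = 0.0674) and 1.02 for valsartan (adjusted p = 0.129).

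Adra1d, the alpha1D receptor, rose by less and with a different order of groups. Its level ran from 0.42 through a median of 0.88 to 1.39 on saline arrays. It ran from 1.90 through 2.17 to 2.82 at the low dose, from 1.46 through 1.64 to 2.47 at the high dose and from 1.68 through 1.82 to 2.01 under valsartan. Again every treated array lay above every saline array, by a gap as small as 0.071 at the high dose, with no share over all probes to set beside it. The 10 spots of its probe make this the most repeated measurement among the 7 genes, with a within-array SD of 0.014 to 0.304 on the log2 scale. The spots agreed least on valsartan array 2 (SD 0.304, range 0.78) and high-dose array 3 (SD 0.163, range 0.44).

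The mean level of Adra1d was 0.87 ± 0.33 (SD, n = 8) in saline, 2.23 ± 0.32 (SD, n = 6) at the low dose, 1.74 ± 0.37 (SD, n = 6) at the high dose and 1.83 ± 0.15 (SD, n = 6) under valsartan. The rise over saline was 2.56-fold at the low dose (log2 difference 1.36 ± 0.17 SE, adjusted p = 7.96e-07), 1.82-fold at the high dose (0.86 ± 0.17, adjusted p = 0.000117) and 1.94-fold under valsartan (0.96 ± 0.17, adjusted p = 3.45e-05). Here the low dose stood highest. The high-dose level was lower than the low-dose level by 1.41-fold (log2 difference -0.49 ± 0.18 SE, adjusted p = 0.0476), a call at the edge of the threshold that was lost in 21 of 29 alternatives and turned to 0.069 within the scan day that holds both doses. Leaving out any 1 of high-dose arrays 2 to 6 or low-dose arrays 2 to 5 ended it. Valsartan differed from the low dose by -0.40 (interval -0.78 to -0.03, adjusted p = 0.101) and from the high dose by 0.091 (interval -0.28 to 0.47), so neither pair was called. The rise under valsartan was 0.59 (adjusted p = 0.0518) with the white fat marker mean in the fit and 0.91 (adjusted p = 0.000413) without saline arrays 3, 7 and 8.

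**Figure D2:**
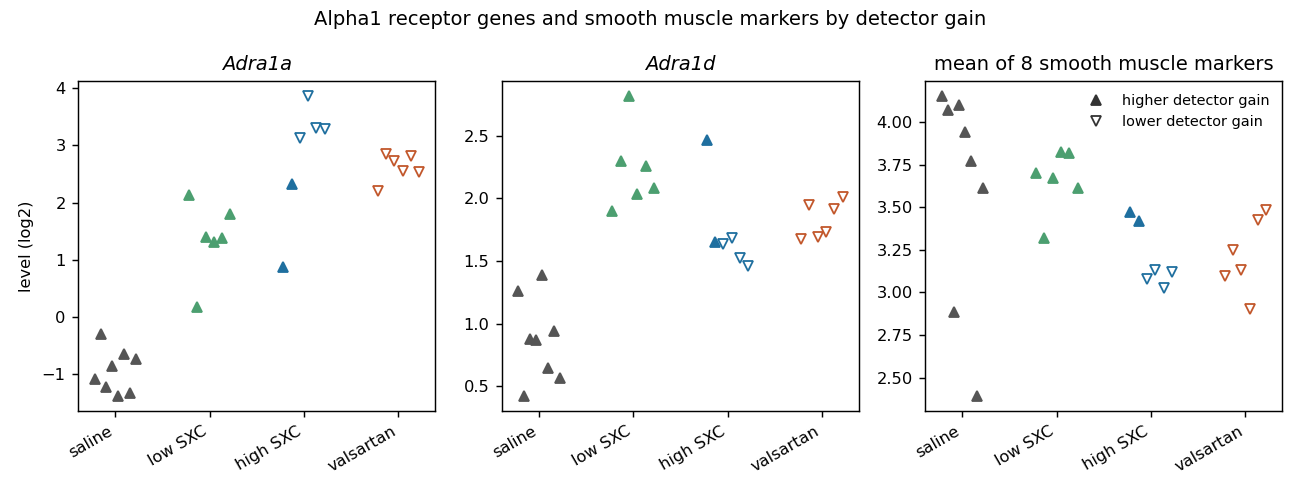
Levels of Adra1a, Adra1d and the mean of 8 smooth muscle markers (log2, relative to the array's 75th percentile) on each array, by group. Filled upward triangles are arrays at the higher detector gain and open downward triangles those at the lower gain; high-dose arrays 3 to 6, at the lower gain, hold the group's highest Adra1a levels (3.12 to 3.86), while its highest Adra1d level (2.47) is on an array at the higher gain.

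Adra1b, the alpha1B receptor, did not share this pattern. Its level ran from -0.73 through a median of 0.49 to 0.69 on saline arrays, from 0.67 through 0.77 to 1.06 at the low dose, from -0.26 through 0.24 to 0.83 at the high dose and from -0.31 through 0.16 to 0.63 under valsartan. Saline was split: arrays 3, 7 and 8, those with the most fat marker signal, had -0.73, -0.55 and 0.02, and the other saline arrays had 0.49 to 0.69. The group means were 0.19 ± 0.55 (SD, n = 8), 0.81 ± 0.14, 0.26 ± 0.39 and 0.21 ± 0.34 (SD, n = 6 each) in the same order. Only the low dose was called against saline, 1.53-fold higher (log2 difference 0.62 ± 0.22 SE, adjusted p = 0.025). That call was lost without saline arrays 3, 7 and 8 (0.25, adjusted p = 0.303), with the white fat marker mean in the fit (0.018, adjusted p = 0.972) and without saline array 3 alone (0.48, adjusted p = 0.0574), saline array 7 alone (0.51, adjusted p = 0.0559) or low-dose array 3 alone (0.57, adjusted p = 0.0584). It was also lost with slide as a random block (0.56, adjusted p = 0.154). The same held with saline arrays averaged in pairs (1 and 5, 2 and 6, 3 and 7) and arrays 4 and 8 left out (0.64, adjusted p = 0.0973). Against saline the high dose differed by 0.071 (interval -0.37 to 0.51) and valsartan by 0.020 (interval -0.42 to 0.46). The low-dose and valsartan ranges did not overlap, by 0.043, yet their difference of -0.60 was not called (adjusted p = 0.055), nor was that of high and low dose (-0.54, adjusted p = 0.0815). Leaving out valsartan array 5 or 6 made the first a call (-0.68 and -0.66, adjusted p = 0.0416 and 0.0448), and leaving out high-dose array 1 the second (-0.66, adjusted p = 0.0316).

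Adra2b, the alpha2B receptor, rose by a similar amount under each treatment. Its level ran from -1.10 through a median of -0.15 to 0.45 on saline arrays. It ran from 0.18 through 0.74 to 1.01 at the low dose, from -0.05 through 0.79 to 1.44 at the high dose and from 0.01 through 0.68 to 1.65 under valsartan. The ranges of saline and each treatment overlapped, and saline array 3, the lowest, is again one of the arrays rich in fat markers. The means were -0.20 ± 0.53 (SD, n = 8) in saline, 0.68 ± 0.29 at the low dose, 0.78 ± 0.51 at the high dose and 0.68 ± 0.59 under valsartan (SD, n = 6 each). The rise was 1.96-fold at the high dose (log2 difference 0.97 ± 0.26 SE, adjusted p = 0.0023), 1.84-fold at the low dose (0.88 ± 0.26, adjusted p = 0.0079) and 1.84-fold under valsartan (0.88 ± 0.26, adjusted p = 0.0050). No pair of treatments was called: high and low dose differed by 0.094 (interval -0.47 to 0.66), valsartan and high dose by -0.092 (-0.66 to 0.47), and valsartan and low dose by 0.0015 (-0.56 to 0.57).

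Those calls of Adra2b were less firm than those of the alpha1A and alpha1D genes. Without saline arrays 3, 7 and 8 the high-dose rise was 0.71 (adjusted p = 0.0286), the low-dose rise 0.62 (adjusted p = 0.0781) and the valsartan rise 0.62 (adjusted p = 0.054). With the detector gain in the fit, the high-dose rise was 0.54 (adjusted p = 0.288). With slide as a random block the valsartan rise was 0.82 (adjusted p = 0.0511), and with saline arrays averaged in pairs the low-dose rise was 0.93 (adjusted p = 0.054).

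Adra2a, the alpha2A receptor, was at the limit of detection. Its probe was well above background on 5 of 26 arrays, 3 of saline, 1 at the low dose, 1 at the high dose and 0 under valsartan, and was not tested. Levels lay between -6.84 and -2.70, with medians of -5.65 in saline, -6.01 at the low dose, -5.24 at the high dose and -4.46 under valsartan. The ranges of all groups overlapped, and no order was read from signals that mostly do not rise above background.

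The 250 bases upstream of the annotated start are shown for genes called higher against saline in more than 1 comparison. Of these, Adra1d, Adra2b and Adrb1 are held by the RefSeq promoter table (GRCr8), so that the regions in front of them can be compared. The table matched 5 of the 7 genes, Adra1b, Adra1d, Adra2a, Adra2b and Adrb1. Each is written 5′ to 3′ on the gene's strand, with capitals for the matches to a motif searched on both strands. The motifs were the GC box (GGGCGG, or CCGCCC on the other strand), the cAMP response half-site (TGACG or CGTCA), the CAAT box (CCAAT or ATTGG) and the TATA box (TATAAA or TTTATA). Over 33469 promoters of the table, 30.5%, 18.2%, 34.0% and 12.9% held them.
Adra1d (chr3:139262332-139262581, minus strand): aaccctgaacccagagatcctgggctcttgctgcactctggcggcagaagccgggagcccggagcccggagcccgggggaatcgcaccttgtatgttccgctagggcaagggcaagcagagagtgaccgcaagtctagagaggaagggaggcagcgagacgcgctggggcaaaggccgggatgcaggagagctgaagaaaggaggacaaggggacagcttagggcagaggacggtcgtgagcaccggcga
Adra2b (chr3:135038231-135038480, plus strand): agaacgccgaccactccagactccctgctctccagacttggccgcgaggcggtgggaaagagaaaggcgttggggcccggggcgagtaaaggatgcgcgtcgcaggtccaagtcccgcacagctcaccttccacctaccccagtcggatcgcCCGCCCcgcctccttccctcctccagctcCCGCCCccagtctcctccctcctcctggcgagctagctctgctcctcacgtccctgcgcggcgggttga
Adrb1 (chr1:265776853-265777102, plus strand): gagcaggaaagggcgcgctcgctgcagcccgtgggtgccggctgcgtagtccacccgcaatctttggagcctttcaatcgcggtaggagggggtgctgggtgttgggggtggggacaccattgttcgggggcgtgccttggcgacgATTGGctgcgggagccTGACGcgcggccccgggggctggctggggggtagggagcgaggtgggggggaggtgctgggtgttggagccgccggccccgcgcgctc
The Adra2b window held 2 GC boxes, as CCGCCC. The Adrb1 window held 1 CAAT box, as ATTGG, followed by 1 cAMP response half-site, as TGACG. The Adra1d window held none of the motifs, and no motif was found in all 3 windows. The window of Adra1b, which rose at the low dose only and is not shown, also held none of them and had 70.8% G and C. The 3 windows shown were rich in G and C, at 64.0%, 68.0% and 72.0%, where the median promoter of the table had 51.2%. A match is a string of letters and no measured site.

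Adrb1, the beta1 receptor, was dim on saline arrays and brighter on most treated arrays. Its level ran from -4.62 through a median of -4.00 to -3.69 on saline arrays. It ran from -3.47 through -2.89 to -2.16 at the low dose, from -2.97 through -1.61 to 0.08 at the high dose and from -3.72 through -2.57 to 1.25 under valsartan. All low-dose and high-dose arrays lay above all saline arrays, while the lowest valsartan array did not. Its probe was well above background on 8 of 8 saline, 6 of 6 low-dose, 5 of 6 high-dose and 3 of 6 valsartan arrays. In signal, saline arrays read 33.5 to 57.8. Valsartan array 1 read 1061 and the other valsartan arrays 15.2 to 73.1, so in signal most of these were not clearly brighter than saline.

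The mean level of Adrb1 was -4.06 ± 0.28 (SD, n = 8) in saline, -2.83 ± 0.46 at the low dose, -1.60 ± 1.16 at the high dose and -2.09 ± 1.74 under valsartan (SD, n = 6 each). Adrb1 was 5.47-fold higher at the high dose (log2 difference 2.45 ± 0.52 SE, adjusted p = 0.00028) and was called higher under valsartan (1.97 ± 0.52, adjusted p = 0.0023). Since 3 of the 6 valsartan arrays were not well above background, both the direction and the size of that difference are uncertain, and no fold is given. The 75th percentile that levels are relative to was a signal of 172 to 447 on valsartan and 724 to 869 on saline arrays. The call also rests in part on valsartan array 1: without that array the difference was 1.30 ± 0.38 (adjusted p = 0.0055). At the low dose the difference of 1.23 ± 0.52 was not called in the fit over all arrays (adjusted p = 0.063). It was called with only those 2 groups in the fit (adjusted p = 0.000102) and without the arrays that had under 40% of probes well above background (adjusted p = 0.0058). The high-dose rise was 1.53 with detector gain in the fit (adjusted p = 0.128). High and low dose differed by 1.22 (interval 0.08 to 2.37, adjusted p = 0.104) and valsartan and high dose by -0.48 (interval -1.63 to 0.66), so the order high dose, valsartan, low dose is one of means only. Leaving out high-dose array 1 made the first of these a call (adjusted p = 0.0428), but within the scan day that holds both doses it turned to -0.21 (adjusted p = 0.999).

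Adrb3, the beta3 receptor of fat cells, had by far the widest spread among the 7 genes and was the one that fell. Its level ran from -0.56 through a median of 1.34 to 5.62 on saline arrays, at signals from 557 to 36621. It ran from -0.44 through 0.06 to 2.08 at the low dose, from -0.71 through 1.25 to 1.90 at the high dose and from -3.24 through -2.39 to -0.22 under valsartan. Saline arrays 3, 7 and 8 read 5.59, 5.62 and 4.63, and the other saline arrays -0.56 to 1.42. The valsartan range reached into the saline range by 0.34, and 3 of 6 valsartan arrays were not well above background.

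The mean level of Adrb3 was 2.28 ± 2.59 (SD, n = 8) in saline, 0.29 ± 0.92 at the low dose, 0.89 ± 0.99 at the high dose and -1.87 ± 1.31 under valsartan (SD, n = 6 each). Under valsartan the log2 difference from saline was -4.15 ± 0.84 (SE, adjusted p = 0.000167). Since 3 of the 6 valsartan arrays read the probe at background, the size of that fall is uncertain and no fold is given. Without saline arrays 3, 7 and 8 the difference was -2.35 ± 0.58 (SE, adjusted p = 0.0016). The high dose (-1.39, interval -3.12 to 0.35) and the low dose (-1.99, interval -3.73 to -0.26, adjusted p = 0.0624) were not called against saline, and without those 3 arrays they differed by 0.41 and -0.19. Valsartan lay below the low dose by 2.15 (difference -2.15 ± 0.90 SE, adjusted p = 0.0758) and below the high dose (-2.76 ± 0.90, adjusted p = 0.131), neither of which passed. Leaving out saline array 1, 4 or 5 or low-dose array 2 made the low-dose fall a call (-2.40, -2.24, -2.36 and -2.35, adjusted p of 0.0228 to 0.0428), and leaving out valsartan array 4 did so for valsartan against the low dose (-2.48, adjusted p = 0.0491).

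The level of Adrb3 moved with the fat markers from array to array. The white fat list averages 7 genes, among them Adipoq, which encodes adiponectin, and was lower in 6 of 7 genes under each treatment. Saline arrays 3, 7 and 8, those with the highest white fat means, were also those with the highest Adrb3. The brown fat list, 6 genes with Ucp1, the heat-producing uncoupling protein, had means of 2.53, 2.96 and 1.78 on the same arrays and -0.76 to 0.72 on the other saline arrays. Of its genes, 0 fell at the high dose (0 at an unadjusted limma p under 0.05) and 1 rose, 1 fell at the low dose and 0 rose (0 unadjusted), and 4 fell under valsartan and 1 rose. The gene that rose was Otop1, by 0.77 and 0.78. With the white fat mean as a covariate, Adrb3 differed from saline by 1.99 at the high dose (adjusted p = 0.00084), 1.98 at the low dose (adjusted p = 0.0039) and 0.40 under valsartan (adjusted p = 0.572), each turned in direction against the fit without it. The genes whose deviations from the group means were most like those of Adrb3 over the 26 arrays, among 12223 genes compared, were Akr1c15 (r = 0.987), Pparg, a master regulator of fat cells (0.969), and Ccl11 (0.967).

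**Figure D3:**
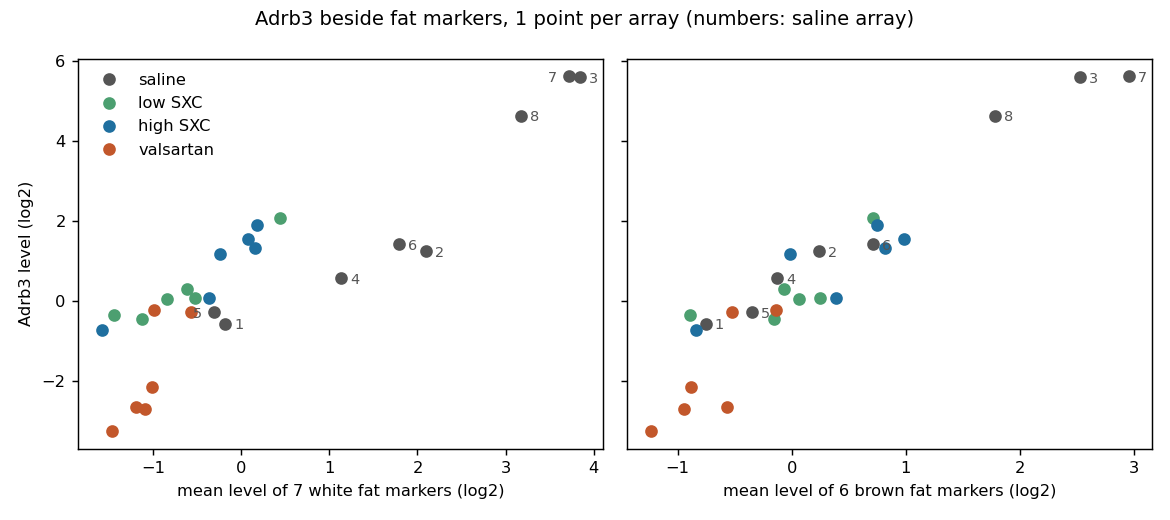
Adrb3 level (log2) against the mean level of 7 white fat markers (left) and 6 brown fat markers (right), 1 point per array, coloured by group, with the saline array numbers written beside their points. Saline arrays 3, 7 and 8 stand apart at the upper right of both plots, with Adrb3 at 4.63 to 5.62.

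The same measure of likeness gave other companions for the other tested genes, as a description without a test. Adra1a deviated most like Tspan14 (r = 0.946), Pyy (0.935) and Stx2 (0.927), and Adra1b most like Fmod, a collagen-binding proteoglycan (0.950), Golph3 (0.949) and Fkbp9 (0.945). Adra1d went most with Zfp451 (0.867), Zfp292 (0.793) and Atg14 (0.758), lower values than for the other genes. Adra2b went most with Palm (0.874), Slc6a18 (0.869) and Has1 (0.858), and Adrb1 with Bsn (0.848), Pdik1l (0.842) and Krt33b (0.839). The arrays share slides, scan days and gain levels, which enter such correlations.

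Across the treated groups, the counts of called receptor genes do not set these genes apart from the rest of the array. Between high and low dose 2 of 6 tested genes passed, Adra1a higher and Adra1d lower, where 25.6% of all tested probes were called, 15.1% higher and 10.4% lower. Between valsartan and the low dose 1 of 6 passed, Adra1a, higher, where 27.5% were called, 12.9% higher and 14.6% lower. Between valsartan and the high dose, 0 of 6 passed the limma test (1 at an unadjusted p under 0.05, Adrb3), where 0.977% of all probes were called, 0.16% higher and 0.817% lower. High-dose arrays 3 to 6 share the lower gain with the valsartan arrays, and the low-dose arrays share the higher gain with high-dose arrays 1 and 2.

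**Figure D4:**
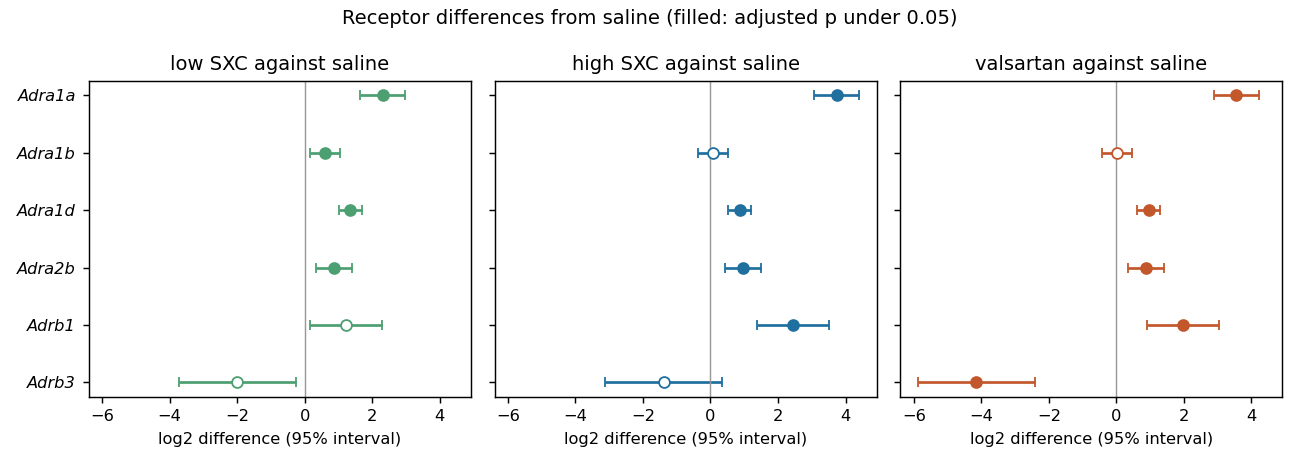
Log2 difference from saline for the 6 tested receptor genes in each treated group, with 95% intervals from the limma fit; filled points were called at an adjusted p under 0.05. Adra1a lies farthest to the right in each panel (2.31, 3.74 and 3.56), and Adrb3 farthest to the left, at -4.15 under valsartan.

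Downstream of the alpha1 receptors, 4 of 12 tested genes of the Gq arm rose at the high dose and 1 fell. At the low dose 2 rose and 1 fell, and under valsartan 4 rose and 1 was called lower. Over all tested probes 30.7% were higher and 25.4% lower at the high dose, 22.4% and 16.9% at the low dose, and 30.3% and 27.4% under valsartan. Itpr1, the calcium release channel opened by inositol trisphosphate, rose by 0.47, 1.14 and 0.70 on the log2 scale (high dose, low dose and valsartan, SE 0.13), highest at the low dose like Adra1d. Its high-dose mean level was 6.21 at the higher gain and 5.76 at the lower. Prkcd, a protein kinase C, rose by 0.45, 0.90 and 0.43 (SE 0.18). Plcb3, a phospholipase C, rose at the high dose (0.90) and under valsartan (0.87), but the high-dose value was -0.05 after quantile normalisation and 2 of 6 valsartan arrays read it well above background. The gene called lower under valsartan was Gna11, a Gq-family subunit, which was well above background on 0 of 6 valsartan arrays, and no fold is given for it. With normexp background correction its difference turned to 0.56 (adjusted p = 0.000916). The list median was 0.21, 0.03 and 0.14, close to the 0.10, 0.08 and 0.10 of all tested probes.

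The Gi arm of the alpha2 receptors had 4 tested genes. Gnai1 fell (-1.26, -0.64 and -0.93, SE 0.22), while Gnai3 rose (0.40, 1.03 and 0.62, SE 0.15) and so did Gnao1 (1.12, 1.27 and 1.08, SE 0.20). High-dose mean levels at the higher and the lower gain were -1.36 and -2.28 for Gnai1 and 5.14 and 4.61 for Gnai3. At the low dose they were -1.35 and 5.41. Gnai2 rose at the low dose (0.57) and was not called elsewhere (0.25 and 0.36). In counts, 2 rose and 1 fell at the high dose, 3 and 1 at the low dose, and 2 and 1 under valsartan.

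In the Gs and cAMP arm of the beta receptors, 4 of 15 tested genes rose and 2 fell at the high dose, 5 and 2 at the low dose, and 5 and 5 under valsartan. Those counts stand beside the shares of all probes given for the Gq arm. Under valsartan 9 genes of the arm were not well above background on any array, among them Creb1, counted as lower, and Adcy6, counted as higher. With normexp, Creb1 turned from -0.60 to 0.71 (adjusted p = 0.000294) and Prkar1b from -0.60 to 0.18 (adjusted p = 0.154). At the high dose Adcy3, counted as higher (0.59), turned to -0.21 with quantile normalisation and to -0.24 with the authors' values. Adcy10, the soluble adenylyl cyclase that G proteins do not drive, rose most (5.09, 2.33 and 5.77, SE 0.38), and Adcy5, a membrane cyclase that they do, rose at the low dose (0.91) and under valsartan (0.42). The level of Adcy10 moved with the gain: it was -3.28 to -2.80 on saline and -1.51 to 0.70 on low-dose arrays, 0.41 to 0.99 on the high-dose arrays at the higher gain, 2.68 to 2.73 on those at the lower gain and 2.33 to 3.25 under valsartan. At the high dose the mean level of Adcy5 was 2.79 at the higher gain and 2.10 at the lower, against 1.94 in saline and 2.85 at the low dose. Gnas, the Gs alpha subunit, fell at the high dose (-0.75) and under valsartan (-1.07) and was -0.37 at the low dose (adjusted p = 0.086). The mean level of Gnas at the high dose was 7.52 at the higher gain, as at the low dose (7.52), and 6.95 at the lower gain. Prkar1a, a regulatory subunit of protein kinase A, fell in all 3 comparisons (-0.87, -0.40 and -0.64). Of 8 tested cAMP phosphodiesterases, 1 rose in each comparison, and 3, 2 and 3 fell. Pde7b was the one that rose (1.71, 0.60 and 2.20), with high-dose levels of -0.27 to 0.33 at the higher gain and 1.11 to 1.23 at the lower. Pde3b, the enzyme through which insulin lowers cAMP in fat cells, fell most (-2.86, -2.44 and -3.59), with Pde4d (-1.39, -1.04 and -1.78). Pde4b fell at the high dose (-0.92) and under valsartan (-0.73) and was -0.71 at the low dose (adjusted p = 0.059).

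Among 13 tested genes of receptor desensitisation, 7 rose and 3 fell at the high dose, 4 and 2 at the low dose, and 5 and 4 under valsartan. Grk2, a kinase that phosphorylates active beta receptors, rose at the high dose (4.30 ± 0.48 SE) and under valsartan (4.73 ± 0.48) and was not called at the low dose (0.53, adjusted p = 0.401). Its level also moved with the gain: on saline arrays it was -2.83 to -2.11, on low-dose arrays -3.06 to -0.13, on high-dose arrays 1 and 2 -0.29 and 0.30, and on high-dose arrays 3 to 6 2.15 to 2.90. Grk5, a related kinase, fell at the high dose (-0.71) and under valsartan (-1.53). The mean level of Grk5 at the high dose was 0.14 at the higher gain and -0.41 at the lower, against 0.47 in saline and 0.04 at the low dose. Rgs5, a regulator of G protein signalling, fell in all 3 comparisons (-2.11, -2.08 and -2.49, SE 0.31). Snx27, a sorting factor that recycles beta receptors, rose (0.52, 1.05 and 0.77, SE 0.14).

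Of the lipolysis genes under beta receptors in fat cells, 5 of 7 tested fell at the high dose, 5 at the low dose and 6 under valsartan, and 0 rose in each (0 at an unadjusted limma p under 0.05). Pnpla2, the triglyceride lipase ATGL, fell by 2.24, 1.99 and 3.03 on the log2 scale and Mgll, the monoglyceride lipase, by 1.14, 1.26 and 1.57. Abhd5, the coactivator of Pnpla2, fell at both doses of SXC (-1.58 and -1.49). Under valsartan Abhd5 and Dio2, a deiodinase of brown fat, were well above background on 0 of 6 arrays and were at least 1.07-fold and at least 1.68-fold lower than in saline. The list median was -1.24, -1.43 and -2.03. The fat markers, given above, moved the same way, and so did Adrb3 in its means.

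Genes that make, take up and break down catecholamines were called in both directions: 2 of 11 tested rose and 3 fell at the high dose, 2 and 3 at the low dose, and 3 and 4 under valsartan. Over all tested probes the shares higher and lower were 30.7% and 25.4%, 22.4% and 16.9%, and 30.3% and 27.4%. Among the genes called lower under valsartan, Maob, a monoamine oxidase, turned from -0.65 to 0.39 with normexp (adjusted p = 0.0537). Ddc, which makes dopamine from L-DOPA, rose (2.67, 2.06 and 2.45, SE 0.31). Slc22a3, an extraneuronal monoamine transporter, fell at both doses (-1.84 and -1.24), and was at least 1.99-fold lower under valsartan, where 0 of 6 arrays read it well above background. Cyb561, of the vesicle membrane, rose at the low dose (0.50) and under valsartan (0.81). Th, the rate-limiting enzyme of catecholamine synthesis and a sympathetic nerve marker, was not called (-0.13, -0.19 and -0.28), and Dbh, which makes noradrenaline, was not well above background on any saline, low-dose or high-dose array. Npy, a co-transmitter of sympathetic nerves, fell (-2.55, -3.02 and -2.89), and Sox10, a Schwann cell factor, rose (4.21, 2.24 and 4.02). In all, 9 of the 11 nerve and Schwann cell markers were tested, of which 4 rose and 1 fell at the high dose, 1 and 1 at the low dose, and 2 and 2 under valsartan.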

How the data were processed

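Total RNA of thoracic aortas was hybridised to Agilent rat arrays (1-colour, Cy3), 26 in all. Per the file headers, the authors quantified spots with Agilent Feature Extraction 11.0.1.1, and the processed signal used here, an intensity, was background-subtracted within each array by that program. Median intensities of spot and surround, and flags of 0 or 1, are deposited as well. A deposited table of the authors holds log2 values (median 5.75 in every column; method not given in the sources used here) that correlated with their own array (r of 0.960 or more). It served as an alternative. The rn4 build in the headers was not used for coordinates.

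Outlier and control spots were left out (1187 values missing after this), spots of a probe were averaged on the log2 scale, and the 75th percentile of each array over probes was subtracted. Probes were named through the RefSeq gene table (GRCr8): 18005 had 1 symbol, 0 several and 12362 none. Limma 3.58.1 in R 4.3.3 (lmFit, contrasts, eBayes with trend, 2-sided) compared all 6 pairs of groups in 1 fit, with Benjamini-Hochberg adjustment over 23744 probes. It was tested on simulated data. Precision is set by the number of arrays: the median SE of a log2 difference was 0.30 against saline and 0.32 between treatments. The labels number the arrays of a group as replicates, and each array was taken as 1 rat. Whether all saline arrays are separate animals cannot be told from the labels.

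Named were all 7 receptor genes, up to 4 members of each pathway list with the smallest p in any comparison with saline, and the 3 genes most like each receptor (1 gene the rule takes is not reported here); other list genes named (Adipoq, Ucp1, Th, Dbh, Npy and Sox10) were chosen after their values were seen. Members and lists were chosen with earlier results of these data known. Some list genes, Plin1 among them, were not analysed here. A dim probe's fold is given as "at least": the bright group's mean against the mean of, per array, the higher of its lowest well-above-background level and the probe's own. Alternatives were quantile and normexp scaling (on median signals with an offset of 50, as the mean signal is not used here), the authors' values, filters, slide, scan day, gain and replicate blocks, and single arrays left out. Saline arrays were also averaged in pairs (1 and 5, 2 and 6, 3 and 7), with arrays 4 and 8 left out. Added after seeing the data were the percentile over spots, fat and muscle covariates, arrays under 40% detected left out, saline arrays 3, 7 and 8 left out, and 1 scan day alone. Figures were drawn with matplotlib 3.10.9.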

Additional observations from a re-analysis of the deposited data

Results flagged for a closer look

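In 28 sets of a receptor gene and a group, 4 had an array far from the rest of its group by Dixon's test at the 95% level, which chance alone does in about 1 in 20 sets. The Adra1d level of high-dose array 1 was 2.47, against 1.46 to 1.68 on the other high-dose arrays. The Adra2a level of high-dose array 3 was -2.70, not well above background, against -5.72 to -5.19. That array had the fewest probes well above background of all (28.9%). The Adrb1 level of valsartan array 1 was 1.25, well above background, against -3.72 to -1.93, on the valsartan array with the fewest such probes (32.5%). The Adrb3 level of low-dose array 2 was 2.08, against -0.44 to 0.30, and that array also had the highest white fat marker mean of its group (0.44).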

How the results depend on the processing

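Of 1032 values of single receptor genes under alternatives, 898 kept their direction and side of the threshold, among them every alternative for Adra1a against saline, and 48 changed sign with neither value called. The count of called genes against saline (4, 4 and 5 for high dose, low dose and valsartan) became 2 for the high dose with the gain as a block. For the low dose it became 2 with saline arrays averaged in pairs and 2 without saline arrays 3, 7 and 8. For valsartan it became 2 with the white fat covariate and 3 where only probes well above background on all arrays were tested (4 receptor genes). The count of 2 between high and low dose became 1 with the percentile over spots, the authors' values, quantile normalisation, no trend, the muscle or the fat covariate, and the replicate block. It became 0 with gain, scan day or slide as a block, at the higher gain only and within 1 scan day. The count of 1 between valsartan and low dose became 4 with the fat covariate, no filter or normexp, 3 with only these groups in the fit or the replicate block, 2 with the muscle covariate and 0 with the slide block. The count of 0 between valsartan and high dose became 1 with either covariate or the scan day block. Leaving out 1 array gave 1 to 4 (high against low dose), 4 to 4, 3 to 5 and 5 to 5 (high dose, low dose and valsartan against saline), 1 to 2 (valsartan against low dose) and 0 to 0 (valsartan against high dose). Among differences called in either fit, turned in direction were Adra1a (-0.37 with the scan day block and -0.37 within the day) and Adra1d (0.069 and 0.069) for high against low dose, and Adrb3 against saline with the fat covariate (1.99, 1.98 and 0.40). Uncalled differences that changed sign included, for high against low dose, Adrb1 (down to -0.21), Adrb3 (-0.89) and Adra2b (-0.59), and Adra1b at the high dose (-0.44) and under valsartan (-0.66) against saline. The causes were not tested. Same-numbered arrays did not pair (36 pairs, r of -0.37 to 0.28), and the replicate block gave Adra1b 0.46 (adjusted p = 0.084) at the low dose. Saline arrays 3 and 7 (r = 0.68) and 2 and 4 (0.65) deviated together, so that n = 8 may overstate independent samples. The averaging in pairs joined 3 and 7 but not 2 and 4. Its other pairs, 1 and 5 (0.24) and 2 and 6 (0.20), deviated together less, so it is no full check on this.

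Of called probes, 54.7% were higher at the high dose and 52.5% under valsartan against saline, but 41.7% and 38.1% after quantile normalisation and 68.4% and 72.3% with normexp, with medians of all probes of -0.23 and -0.30, and 0.36 and 0.53. The called receptor directions against saline did not turn under these scalings. The mean over several probes of a gene was not run, since each receptor has 1 probe. Gain could not be blocked for valsartan against saline or low dose. Adra2a and, on the dim arrays, Adrb1 and Adrb3 are limited by signal over background.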
